A study of Caenorhabditis elegans with 12 samples.

Results

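The lbp genes of the nematode Caenorhabditis elegans encode small lipid-binding proteins of the fatty-acid-binding protein family. They were found by name, lbp-1 to lbp-9, and all 9 were present among the 21982 genes of the deposited table. Whole worms of strain KH2235, a reporter strain, were sequenced as bulk mRNA at day 6. The strain carries a splicing reporter derived from a minigene of ret-1, and worms were sorted by its colour. The Green group was mostly GFP and the Red group mostly mCherry, so both groups share strain, reporter and day. Each group held 6 libraries, paired across the groups by 6 batch numbers. The question is whether worms alike in strain and day but unlike in reporter splicing differ in the RNA of this family. The sources used here do not give the reporter's promoter, how many worms made a library or the event from which day 6 was counted. Separate cultures are not stated in the labels, so each p-value measures only the spread among libraries, which may be technical.

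Proteins of this family fold into a small barrel that encloses a fatty acid or a related lipid and carries it through the cytosol, into the nucleus or, for secreted members, outside the cell. In C. elegans, lbp-1, lbp-2 and lbp-3 encode members with a signal for secretion and resemble a lipid-binding protein of the fluid around the Ascaris embryo. LBP-3 has been described as a lipid carrier released from the intestine toward neurons, and LBP-8 as one that takes a lipid made in the lysosome to the nucleus, where the nuclear receptors NHR-49 and NHR-80 act. LBP-5 has been linked to fat storage and to NHR-49. The other members are less well described.

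Depth, recovered as whole reads, ran from 30185155 to 87141961 reads per library. The labels give the tissue as the whole body, and all 84 marker genes of 9 cell types or stages had a read in at least 1 library. Of the 14618 genes whose mean reached 10 normalized counts, 39.1% passed an adjusted p of 0.05 in limma, 2781 higher and 2938 lower in Green. Centring every library on its median gene changed that split to 4163 higher and 2337 lower. The median fold over tested genes, on the log2 scale, then became 0.16 in place of 0.04. On the second principal component, with 19.1% of the variance, Red replicate 6 stood apart from the other 11 libraries. The folds of lbp-1, lbp-3, lbp-4, lbp-7 and lbp-9 and some of the counts are therefore also given without it. The correlations among members are not.

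Position and gene structure split the family into groups. On chromosome X (WBcel235), lbp-3 (3257372 to 3258155), lbp-1 (3259142 to 3259812) and lbp-2 (3260610 to 3261470) lie in a row on the plus strand, separated by 986 and 797 bases with no other protein-coding gene between them. On chromosome I, lbp-6 (6728296 to 6729376) and lbp-5 (6731267 to 6732276) lie on the minus strand with 1890 bases and 1 other gene, ant-1.2, between them. Chromosome V holds lbp-9 (2068449 to 2069142), lbp-4 (7820578 to 7821477), lbp-7 (13879552 to 13880213) and lbp-8 (13890773 to 13891364), all on the plus strand. Only lbp-7 and lbp-8 are close there, with 10559 bases between them. The longest annotated coding sequences are 159, 161 and 165 codons in lbp-1, lbp-2 and lbp-3 and 152 in lbp-9. They are 145 codons in lbp-4, 136 in lbp-5, 135 in lbp-6 and 137 in both lbp-7 and lbp-8. The last 35 bases of the lbp-6 gene overlap mec-6 on the other strand, and lbp-9 overlaps Y40B10A.9 by 5 bases. The sources used here do not say whether reads were counted by strand. mec-6 had 33.8 to 49.98 normalized counts in Green and 52.2 to 81.1 in Red, far below lbp-6, and Y40B10A.9 had 325 to 447 and 414 to 747, far below lbp-9.

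Per length of exon, the members spanned several orders of magnitude. In Green, lbp-9 was the highest at 32503 ± 2704 normalized counts per kb (SD, n = 6), and lbp-2 followed at 11929 ± 1418. lbp-6 had 4007 ± 386 and lbp-1 3509 ± 447 per kb, and their ranges overlapped, with lbp-6 the higher of the pair in 4 of 6 Green libraries. Below them, without overlap between neighbours, came lbp-4 at 2401 ± 165, lbp-3 at 1461 ± 156, lbp-5 at 427 ± 54.2, lbp-7 at 249 ± 81.6 and lbp-8 at 4.37 ± 3.68 normalized counts per kb. In Red the order was the same except that lbp-1 stood above lbp-6. There lbp-1 had 7867 ± 1701 per kb and overlapped lbp-2 at 8311 ± 1647, with lbp-2 higher in 4 of 6 libraries. The Red ranges of lbp-6 and lbp-4, and of lbp-4 and lbp-3, also overlapped. lbp-9 made up 57.5% of the family's summed mean level per kb in Green and 52.3% in Red, and lbp-1 made up 6.21% in Green and 16.7% in Red. By normalized counts, lbp-9 held 64.4% of the family in Red replicate 6 and 39.2% to 52.0% in the other Red libraries. In Green libraries it held 50.35% to 58.6%. All 9 genes together held 0.0691% to 0.0778% of the normalized counts of a Green library and 0.0608% to 0.0709% of those of a Red library.

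**Figure D1:**
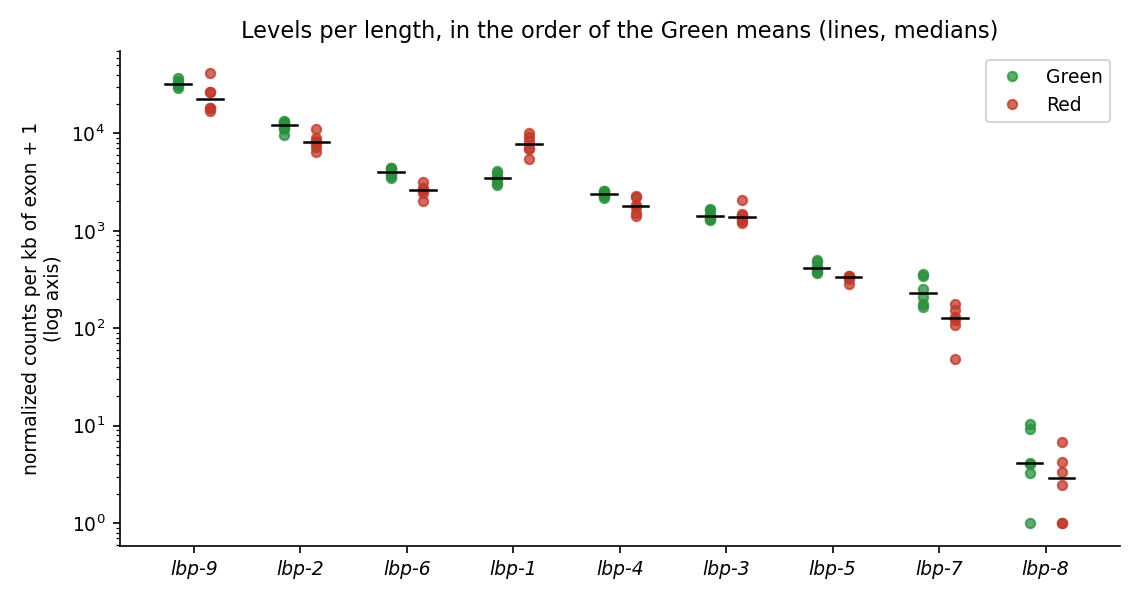
Level of each lbp gene per kb of exon plus 1 (log axis) in the 6 Green and 6 Red libraries, ordered by the Green mean; points are libraries and lines are medians. lbp-9 lies at the top in both groups, lbp-8 near 0, and lbp-1 is the gene whose Red points lie above its Green points.

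Most lbp genes were higher in Green, and 1 was lower. Of the 8 members that passed the filter on low values, 6 rose in Green (lbp-2, lbp-4, lbp-5, lbp-6, lbp-7 and lbp-9), lbp-1 fell and lbp-3 did not pass, and lbp-8 was below the filter. These counts are to be read beside the 19% of tested genes called higher and the 20.1% called lower in Green. Without Red replicate 6 the same numbers of lbp genes were called, beside 29.3% and 25.5% of tested genes. The median log2 fold of the 8 tested members was 0.44, against 0.04 for all tested genes. In lbp-5 and lbp-6 all Green libraries were above all Red libraries, as in 7.06% of tested genes, and in lbp-1 all were below, as in 9.71%. Log2 folds are Green against Red, from limma on log2(normalized counts + 1), with p-values adjusted by Benjamini-Hochberg over all 14618 tested genes. In whole worms, fewer cells of a type and less RNA per cell cannot be told apart.

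**Figure D2:**
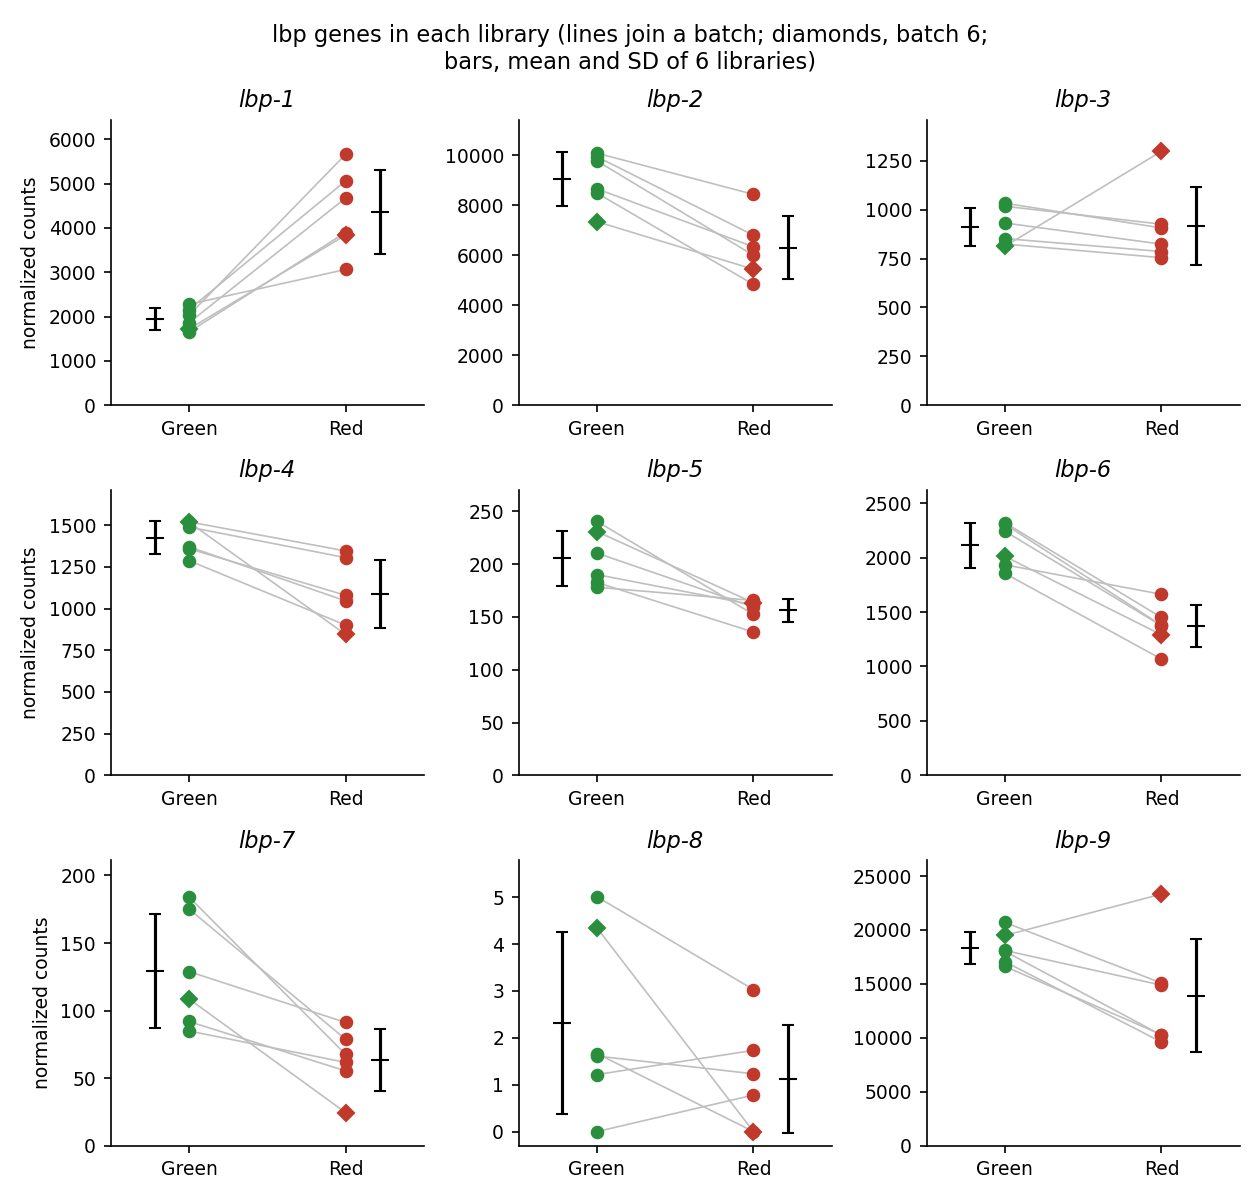
Normalized counts of the 9 lbp genes in every library; grey lines join the Green and the Red library of a batch, diamonds mark batch 6, and black bars give the mean and SD of 6 libraries. In every batch lbp-1 is higher in Red, and lbp-2, lbp-4, lbp-5, lbp-6 and lbp-7 are higher in Green.

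Among the neighbours on chromosome X, which encode the secreted members, lbp-1 and lbp-2 differed in opposite directions. lbp-1 had 1649.8 to 2276 normalized counts in Green with a median of 1942, and 3062 to 5661 in Red with a median of 4287. Every Green library was below every Red library. The log2 fold was -1.15 with a standard error of 0.14 and a 95% interval from -1.44 to -0.85 (limma adjusted p = 5.62e-05), a 2.21-fold lower level in Green, and 7.52% of tested genes had a lower fold. The lowest Red value belonged to replicate 1, and the batch 1 difference of -0.43 was the smallest, whereas batches 2 to 6 ran from -1.48 to -1.16. Leaving out Red replicate 6 gave a log2 fold of -1.18.

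lbp-2, the second most abundant member per length, had 7347 to 10092 normalized counts in Green with a median of 9222, and 4831 to 8439 in Red with a median of 6169. In 5 of 6 Green libraries it was above all Red libraries, and only Green replicate 6 lay within the Red range. Its log2 fold was 0.54 (standard error 0.12) with an interval from 0.27 to 0.80 (limma adjusted p = 0.0042), 1.45-fold higher in Green. All 6 batches had the higher value in Green, by 0.26 to 0.81.

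lbp-3, the first gene of the row, did not pass the test. It had 812 to 1033 normalized counts in Green with a median of 892, and 754 to 1299 in Red with a median of 865. The groups overlapped, and Red replicate 6 at 1299 lay above all other libraries while the remaining Red values ended at 926. The log2 fold was 0.01, with an interval from -0.26 to 0.28 (limma adjusted p = 0.95), which does not show that the groups are alike. In batches 1 to 5 Green was slightly higher, by 0.12 to 0.19, and in batch 6 the difference was -0.68. With that library left out, the log2 fold was 0.12 (limma adjusted p = 0.28).

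Within single libraries, the balance among these neighbours separated the groups. The level of lbp-2 per kb was 2.88 to 3.92 times that of lbp-1 in Green, with a median of 3.39, and 0.70 to 2.02 times in Red, with a median of 1.05. The level of lbp-3 was 0.35 to 0.49 times that of lbp-1 in Green and 0.13 to 0.30 times in Red. Neither ratio overlapped between the groups, but lbp-1, by which both are divided, did not overlap by itself either. With lbp-3 at a log2 fold of 0.01, its ratio mostly restates the difference of lbp-1. These ratios compare levels within a library and do not depend on its scaling. They were chosen after the values were seen and carry no test. On chromosome I, the level of lbp-6 per kb was 7.95 to 11.5 times that of lbp-5 in Green and 7.19 to 9.40 times in Red, so that pair overlapped.

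**Figure D3:**
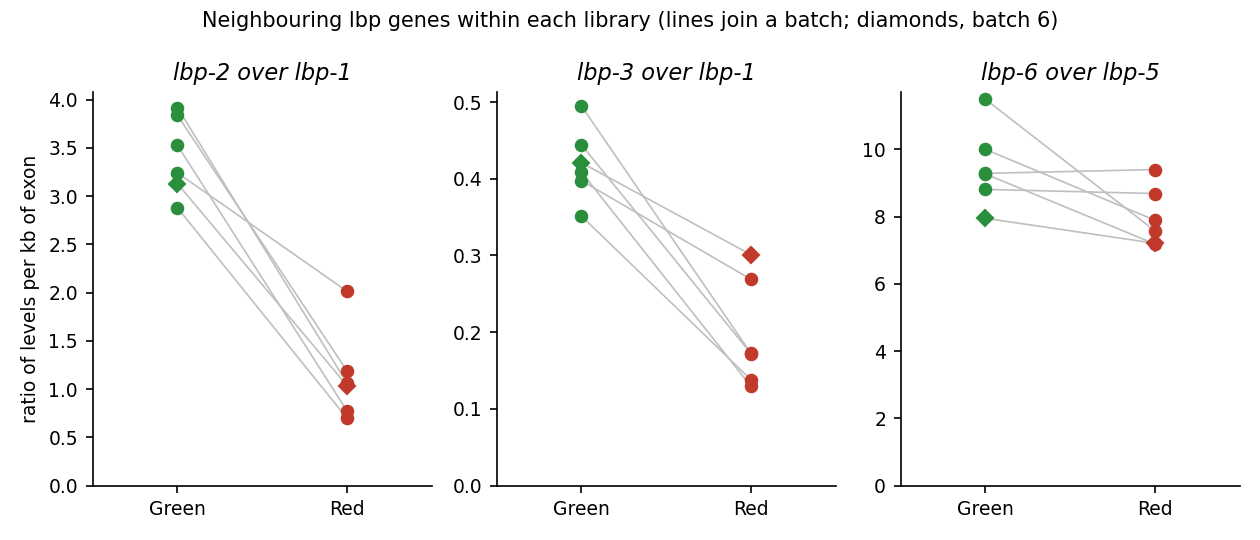
Ratio of levels per kb of exon between neighbouring lbp genes in each library; lines join the libraries of a batch and diamonds mark batch 6. The ratios to lbp-1 are higher in Green in every batch, without overlap, whereas those of lbp-6 to lbp-5 overlap between the groups.

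The chromosome I pair, of members without a secretion signal, was higher in Green without overlap. lbp-6 had 1855 to 2321 normalized counts in Green with a median of 2127, and 1068 to 1663 in Red with a median of 1377. Its log2 fold was 0.63 with a standard error of 0.10 and an interval from 0.41 to 0.85 (limma adjusted p = 4.56e-04), 1.55-fold higher in Green. Batch 1 again had the smallest difference, at 0.22, and the other batches ran from 0.64 to 0.80. lbp-5, the member linked to fat storage, had 178 to 240.5 normalized counts in Green with a median of 200.3, and 136 to 166 in Red with a median of 160.5. The Red libraries were close together, with a coefficient of variation of 7.10%, and the Green libraries less so, with 12.7%. The log2 fold of lbp-5 was 0.39 with a standard error of 0.12 and an interval from 0.14 to 0.64 (limma adjusted p = 0.019), and Green was higher in 6 of 6 batches, by 0.10 to 0.65.

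lbp-4 and lbp-9, single genes on chromosome V, were higher in Green with different certainty. lbp-4 had 1287 to 1520.0 normalized counts in Green with a median of 1429.6, and 845 to 1346 in Red with a median of 1063. In 5 of 6 Green libraries it exceeded all Red libraries. Its log2 fold was 0.41 with a standard error of 0.12 and an interval from 0.16 to 0.65 (limma adjusted p = 0.013), and Green was higher in 6 of 6 batches. The lowest value was that of Red replicate 6, and without it the log2 fold was 0.34 (limma adjusted p = 0.012).

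lbp-9, the most abundant member, had 16621 to 20699 normalized counts in Green with a median of 18059, and 9608 to 23330.4 in Red with a median of 12586. Red replicate 6 was the highest of all 12 libraries, and the other 5 Red libraries, up to 15076, were below every Green library. The log2 fold was 0.47 with a standard error of 0.18 and an interval from 0.09 to 0.85 (limma adjusted p = 0.04958), just past the threshold. The call was lost in edgeR (adjusted p = 0.089), in DESeq2 (0.090) and without any 1 library other than Red replicate 3 or Red replicate 6. Without Red replicate 6 the log2 fold was 0.63 (limma adjusted p = 9.39e-04), and with the batch as a block the adjusted p was 0.017. Green was higher in batches 1 to 5, by 0.28 to 0.83, and the batch 6 difference was -0.26.

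lbp-7 and lbp-8, with coding sequences of equal length, are the least abundant members. lbp-7 had 84.9 to 184 normalized counts in Green with a median of 119, and 24.5 to 91.2 in Red with a median of 64.6. In 5 of 6 Green libraries it exceeded all Red libraries, with Green replicate 3 inside the Red range. Its log2 fold was 1.06, the highest of the family, with a standard error of 0.29 and an interval from 0.43 to 1.68 (limma adjusted p = 0.012), and 2.55% of tested genes had a higher fold. Its values were also more spread than those of most members, with coefficients of variation of 32.7% in Green and 36.1% in Red. All 6 batches had the higher value in Green, from 0.46 in batch 3 to 2.10 in batch 6. Without Red replicate 6, the lowest library, the log2 fold was 0.81 (limma adjusted p = 0.0072).

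lbp-8, the carrier of the lysosomal lipid signal, was close to the limit of these libraries. Its reads numbered 16 over the 6 Green libraries and 7 over the 6 Red libraries. The single libraries held 0 to 8 reads in Green and 0 to 3 in Red, with 0 in Green replicate 5 and in Red replicates 3 and 6. A count of 0 allows up to 3 reads, or 3.54, 3.63 and 1.89 normalized counts in these libraries, for counting error only. Normalized counts were 2.31 ± 1.94 in Green and 1.13 ± 1.15 in Red (SD, n = 6), the groups overlapped, and 4 of 6 batches were higher in Green. An exact two-sided permutation test on log2(normalized counts + 1) gave a difference of 0.58 and p = 0.29, so a difference was not detectable at this depth.

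**Figure D4:**
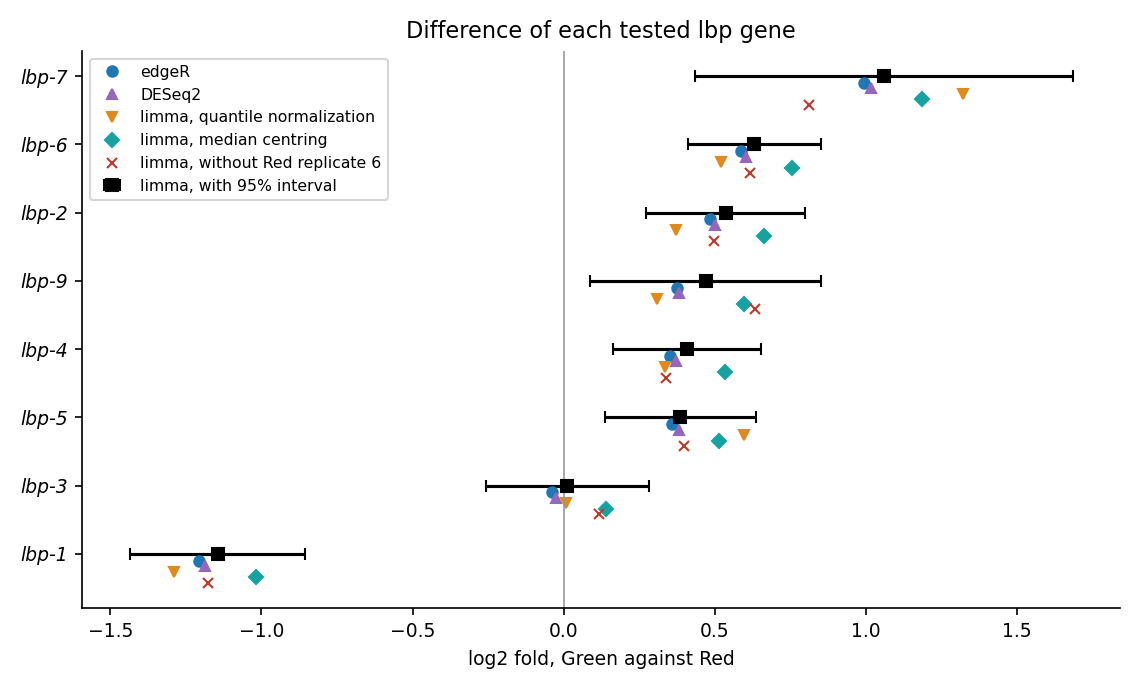
Log2 fold of Green against Red for the 8 tested lbp genes, with the 95% interval of limma (black) and the value under 5 alternatives. lbp-1 stays below 0 and the 6 genes called higher stay above 0 under all alternatives drawn, and lbp-3 lies near 0 with values on both sides.

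Batch by batch, the direction was uniform for 6 of the 9 members. Green was higher in 6 of 6 batches for lbp-2, lbp-4, lbp-5, lbp-6 and lbp-7, and lower in 6 of 6 for lbp-1. Batch 1 had the smallest difference for lbp-1, lbp-2 and lbp-6. Batch 6 departed in both directions: it held the highest differences of lbp-4, lbp-7 and lbp-8 and the lowest of lbp-3 and lbp-9.

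**Figure D5:**
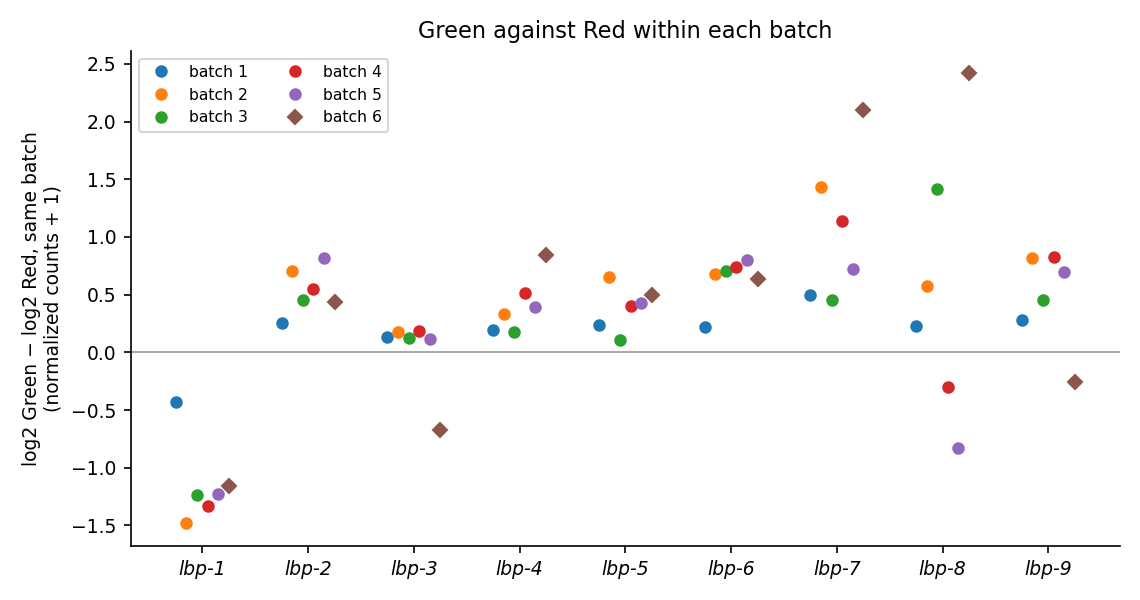
Difference of log2(normalized counts + 1), Green minus Red, within each of the 6 batches for the 9 lbp genes. Batch 6 (diamonds) lies below 0 for lbp-3 and lbp-9, where the other 5 batches lie above 0.

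The members did not vary as 1 unit. Over the 12 libraries, deviations of log2 values from the group means gave Pearson correlations with a median of 0.13 over the 28 pairs of tested members, 4 above 0.5 and 4 below -0.5. The highest was 0.75 for lbp-2 and lbp-6, on different chromosomes, and the lowest was -0.65 for lbp-1 and lbp-9. The adjacent lbp-1 and lbp-2 had -0.31. These are descriptions of 12 libraries that share batches and scaling.

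Among 9940 other genes whose mean reached 100 normalized counts, those whose deviations were most like a member's differed from member to member. For lbp-1 they were C06E1.1 and fbxc-29 (r = 0.95 each), for lbp-2 Y37D8A.2 and ZK1320.2 (0.90 and 0.89), and for lbp-3 C53B7.2 and F53C11.3 (0.99 and 0.98). For lbp-4 they were C50F4.16 and mpst-1 (0.98 and 0.97), for lbp-5 T21D12.12 and F56F11.2 (0.84 and 0.81), and for lbp-6 hrg-7 and Y7A5A.1 (0.95 and 0.91). For lbp-7 they were cyp-33C7 and aat-1 (0.97 and 0.95), and for lbp-9 hrde-2 and hmg-12 (0.99 each). No gene appeared for 2 members, which says little with 9940 genes searched. Without Red replicate 6 each of these correlations was at least 0.836. The genes were picked for their high correlation, and this recheck used libraries that had served for the picking. The values are therefore a description only and carry no test.

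Around LBP-8 and LBP-3, genes of lysosomal lipid signalling were examined, beside the 19% and 20.1% of all tested genes called higher and lower. Of 12 such genes 5 rose and 2 fell, while 5 missed the threshold, and the median log2 fold was 0.25. The 2 that fell are near the share over all genes. The lysosomal lipase genes lipl-5, lipl-2 and lipl-4 rose, at 1.22, 1.04 and 1.24 (limma adjusted p = 7.71e-05, 0.0024 and 0.0070). The lipase genes lipl-1 and lipl-3 did not pass, at 0.54 and -0.34 (limma adjusted p = 0.074 and 0.097). hlh-30, the TFEB-like regulator of lysosomal genes, fell at -0.38, and nlp-11, a neuropeptide gene placed downstream of LBP-3, at -0.50 (limma adjusted p = 0.0036 and 0.0028). The nuclear receptor genes nhr-49 and nhr-80 did not pass, at 0.03 and 0.21 (limma adjusted p = 0.76 and 0.24). The receptor genes nhr-66 and nhr-13 of the same list rose, at 0.40 and 0.28 (limma adjusted p = 0.0079 and 0.012). Of 12 genes of NHR-49 dependent fatty acid oxidation and desaturation, 3 rose and 1 fell, with a median of 0.18, against the same 19% and 20.1%. The desaturase gene fat-7 rose, at 1.83, whereas fat-5 and fat-6 did not pass, at 0.66 and -0.31 (limma adjusted p = 0.062 and 0.069). The carnitine palmitoyltransferase genes cpt-5 and cpt-2 rose, at 0.91 and 0.22, and the monooxygenase gene fmo-2 fell, at -1.96. With Red replicate 6 left out, 6 of these genes rose and 2 fell, beside 29.3% and 25.5% of all tested genes. The fallen genes numbered 3 without Red replicate 1 and 2 without Green replicate 1, Green replicate 2 or Red replicate 5. Over all tested genes, leaving out single libraries gave 2441 to 3722 called lower.

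Other lists of lipid binding and transport genes differed in their counts, which are to be read beside the same 19% higher and 20.1% lower of all tested genes. The far genes encode another nematode family of fatty acid and retinol binding proteins, and of 8 tested 3 rose and 0 fell, with a median log2 fold of 0.37. They were far-3, far-8 and far-2, at 1.64, 0.54 and 0.46 (limma adjusted p = 2.08e-04, 0.0012 and 0.034). The summed level of the far genes reached 134479 normalized counts in Red replicate 6, against at most 122822 in Green. Without that library 4 far genes rose and 0 fell. Of 6 tested acyl-CoA binding protein genes 0 rose and acbp-6 fell, at -0.54 (limma adjusted p = 0.031). Leaving out any 1 of Green replicates 3, 4 and 5 and Red replicates 2 and 5 left 0 of them called lower. Leaving out Red replicate 6, 2 of these 6 rose and 1 fell, beside 29.3% and 25.5% of all tested genes. Of 8 genes of the yolk lipoproteins, their assembly and their receptor, 7 rose, with vit-3, vit-4 and vit-1 at 3.84, 3.80 and 2.21 and the yolk receptor gene rme-2 at 0.64. The most abundant, vit-6, vit-2 and vit-5, were at 0.65, 0.05 and 1.16, and vit-2 did not pass (limma adjusted p = 0.805). Sums were 2151211 to 2947577 normalized counts in Green and 1145584 to 2688001 in Red, with Red replicate 6 the highest Red library. The vit genes include near-identical copies, so their single values are uncertain. Of 10 lipid droplet genes 3 rose and 0 fell, with the short-chain dehydrogenase gene dhs-3, a marker of intestinal lipid droplets, at 1.08, acs-22 at 0.60 and lid-1 at 0.32. The risen lipid droplet genes numbered 5 without Red replicate 6.

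Markers of cell types and stages were counted in the same way, beside 19% of all tested genes higher and 20.1% lower, and their part in the lbp results was not tested. Beside the fall of lbp-1, 8 of 9 tested genes of moulting larvae fell and 0 rose, and their summed level was 2618 to 5323 normalized counts in Green and 6668 to 17335 in Red. Of 8 tested embryo markers 5 fell and 1 rose, with sums of 8216 to 9148 and 8933 to 10738. These sums rest mainly on pal-1, the marker that rose, with means of 6791 in Green and 5282 in Red. They therefore say little of the markers that fell. Of 10 pharynx and 10 neuron markers 4 each fell and 0 rose, with sums of 6909 to 8629 and 8342 to 10983 in the pharynx and 14063 to 15506 and 14928 to 18395 in neurons. Without Green replicate 3, 2 pharynx markers fell, beside 2479 of the 14618 tested genes.

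Beside the lbp genes that rose, 9 of 10 germline markers and 7 of 10 body-wall muscle markers rose and 0 fell, against 19% and 20.1% of all tested genes. The germline list shares rme-2 with the yolk list. The germline sums were 309477 to 371845 in Green and 189136 to 309525 in Red, with Red replicate 6 the highest Red library. That library was also the highest in Red for lbp-9, for all normalized counts together and for the intestine, pharynx, neuron and embryo sums. It was not the highest for the muscle, hypodermis, coelomocyte and moulting larva sums. Muscle sums were 40083 to 65296 in Green and 25853 to 45352 in Red. Of 10 intestine markers 2 rose, near the share over all genes, and 1 fell, with sums of 56191 to 98379 and 32583 to 62829. Without Red replicate 6, 4 intestine markers rose, beside 29.3% of all tested genes. Without Red replicate 4 they also numbered 4, beside 2111 of the 14618 tested genes. Of 10 hypodermis markers 3 rose and 2 fell, with sums of 11318 to 12962 and 8503 to 10808. Of 4 coelomocyte markers 2 rose, with sums of 6006 to 6867 and 4403 to 6647. Single genes carry most of these sums, namely lin-26 and nhr-23 in the hypodermis and cup-5 in coelomocytes. The median log2 fold of the hypodermis list was -0.07. The intestine sums rest mainly on cpr-1 and asp-1, while act-5 fell, at -0.60. The fallen hypodermis markers numbered 1 without Green replicate 3 or Red replicate 4. The risen coelomocyte markers numbered 1 when any 1 of Green replicates 2, 3, 5 and 6 and Red replicates 2, 4 and 5 was left out. Over all tested genes, leaving out single libraries gave 1977 to 4287 called higher and 2441 to 3722 called lower. No marker gene was at 0 in all libraries.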

How the data were processed

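The table holds a normalized signal, which the authors obtained by dividing each library's gene counts by a size factor. The build was WBcel235 and the tools named were Salmon 0.14.2, STAR, DESeq2, FastQC 0.11.8 and MultiQC, per the submitters' processing notes. In every library 100% of values were whole reads within 0.001 after the recovered factor was undone, which is less decisive for Red replicate 2, whose factor is close to 1. Libraries of a group differed from each other by more than sampling noise. Positions and exon lengths (the union of exons) came from the Ensembl annotation of WBcel235, where all 9 lbp genes were found. No genome or protein sequence was used here.

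limma 3.58.1 (R 4.3.3, eBayes with trend) was fitted on log2(normalized counts + 1) to genes with a mean of at least 10, with an adjusted p threshold of 0.05. The fit was tested on simulated data. The members, gene lists and tests were chosen with earlier results of these data known. Named genes are all lbp genes, up to 4 genes of each list by smallest p and the 2 genes most like each member. Added after their values were seen were lipl-1, lipl-3, lipl-4, nhr-13, nhr-49, nhr-66, nhr-80, fat-5 and fat-6. So were rme-2, vit-2 and vit-6 (as yolk genes), lin-26, asp-1 and pal-1. The ratios of neighbouring genes were also added after their values were seen. Of the listed genes, far-9 and acbp-2 were not matched, and seip-1 was matched by its identifier.

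Green and Red libraries share batch numbers in the labels, and these pair the libraries. Over genes, the paired libraries' deviations from their group means had correlations of 0.11 to 0.37, with a mean of 0.24. Green and Red libraries of different batches had a mean of -0.05. Deviations within a group sum to 0, so these means are tied and are a description only. Alternatives were median centring, quantile normalization, robust eBayes, the batch as a block, no filter, a minimum mean of 50, pseudocounts of 0.5 and 5, edgeR 4.0.16 and DESeq2 1.42.0 on the recovered reads, and leaving out each library or batch 6. Figures used Python 3.11.15 and matplotlib 3.10.9.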

Additional observations from a re-analysis of the deposited data

Results flagged for a closer look

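lbp-3 in Red replicate 6, at 1299 normalized counts, lay far from the other 5 Red libraries, of which the nearest had 926. Its gap made up 0.685 of the range of the Red group. Chance sets about 1 in 20 groups apart in this way, and 18 groups (9 genes in 2 groups) were examined.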

How the results depend on the processing

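lbp-1 was called lower, and lbp-2, lbp-4, lbp-5, lbp-6 and lbp-7 were called higher, under all alternatives run. The count of lbp genes called higher was 5 or 6 and that called lower was 1. The log2 fold of lbp-9 was 0.47 and missed the threshold with a pseudocount of 0.5 (0.47, limma adjusted p = 0.05002) and with no filter (0.47, 0.060), with quantile normalization (0.31, 0.060), in edgeR (0.37, 0.089) and in DESeq2 (0.38, 0.090); leaving out single libraries gave 0.38 to 0.63. The cause was not tested, except that with no filter more genes were tested. The log2 fold of lbp-3, 0.01, was -0.040 in edgeR and -0.027 in DESeq2, and -0.039 to 0.12 without single libraries. With the batch as a replicate block the log2 folds were the same, 6 lbp genes were called higher and 1 lower, and no call on an lbp gene changed. For lbp-8, sign flips within batches gave p = 0.34, against 0.29 in the exact permutation test.

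Counts in the lists moved by over 1.5 times in some settings. Without Red replicate 6, genes called higher numbered 4287 against 2781 over all tested genes. List counts are to be read beside such shifts, from 2781 higher and 2938 lower over all tested genes. These became 3392 and 3309 with the block, 4163 and 2337 with median centring, and 2359 and 2349 with quantile normalization. edgeR gave 2367 and 3242, DESeq2 2693 and 3317, no filter 2573 and 3550, and leaving out batch 6 gave 3970 and 3467. With the block, 3 genes of the NHR-49 list fell against 1, 5 lipid droplet genes rose against 3, and 5 intestine markers rose and 2 fell against 2 and 1. Median centring gave 6 risen lipid droplet genes, 5 risen intestine markers, 1 fallen pharynx marker against 4 and 0 fallen acyl-CoA binding genes against 1. With quantile normalization 2 pharynx markers fell, 1 hypodermis marker against 2, 0 acyl-CoA binding genes, 2 genes of the NHR-49 list (with 2 risen against 3), and 1 yolk gene and 1 germline marker against 0 each; 2 embryo markers rose against 1. edgeR and DESeq2 each gave 2 fallen genes of the NHR-49 list and 1 risen coelomocyte marker against 2, as did no filter. Without batch 6, 5 genes of the NHR-49 list, 2 acyl-CoA binding genes, 5 lipid droplet genes, 4 intestine markers and 1 coelomocyte marker rose. Depth limits lbp-8, with at most 8 reads in a library, and to a lesser degree lbp-7, with 39 to 200 reads.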
